A study of Mus musculus with 12 samples.

Results

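The genotype by heat interaction is the log2 change with heat in mouse embryonic fibroblasts (MEFs) that lack CHIP minus the log2 change with heat in wild-type MEFs. It was computed for every gene on the log2(FPKM + 1) scale. FPKM, as deposited by the authors, is a fragment count scaled to gene length and to a factor per library. Median-of-ratios factors, which set libraries to the same typical gene level, came to 1 over all genes in each of the 12 libraries. The deposited values were thus already level by that measure, not by the plain fragment total. A positive interaction means that the change with heat lay higher in the CHIP-KO cells, and a negative interaction that it lay higher in the wild-type cells. Of the 54532 genes in the deposited table, 13023 reached an FPKM of 1 in at least 3 of the 12 libraries and were tested. A gene could meet that minimum in 1 group alone. The 4 groups held 3 libraries each: wild-type (WT) MEFs without treatment, WT MEFs heat shocked for 1 hour at 43 °C, CHIP-KO MEFs without treatment, and CHIP-KO MEFs given the same heat shock. All groups are labelled as the same cell line, MEF. The sources used here do not give how the knockout was made, how many embryos or clones each genotype came from, or whether the cells recovered before RNA was taken. Since the labels do not call the replicates separate cultures, the p-values cover only the scatter of these libraries, which can be technical.

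CHIP, encoded by Stub1, is a ubiquitin ligase that binds the chaperones Hsp70 and Hsp90 and marks their clients for the proteasome, and it is also known to bind and activate heat shock factor 1 (HSF1). HSF1 is held inactive by chaperones, is freed when heat unfolds proteins, and then binds heat shock elements in the promoters of chaperone genes. Heat also halts much of transcription and translation and starts kinase signalling that induces immediate early genes. The comparison asks whether the response to heat differs in cells that lack CHIP.

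Stub1 (ENSMUSG00000039615, chromosome 17, 25830636 to 25833361, minus strand) ranged from 57.5 to 64.1 FPKM in unheated WT and from 53.8 to 57.9 FPKM in heated WT libraries. In CHIP-KO it ranged from 0.722 to 1.17 FPKM before heat and from 0.996 to 1.17 FPKM after it. The genotypes did not overlap in either condition (exact permutation p = 0.1, two-sided, the smallest that 3 against 3 libraries allow). The Stub1 interaction was 0.23 (adjusted p = 0.144, limma with Benjamini-Hochberg adjustment over all 13023 genes, as for every adjusted p below).

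The libraries held 15591924 to 26954112 fragments counted in genes, as recovered from the FPKM steps. Both WT replicates 1 stood apart from their own group: their counts differed from replicates 2 and 3 with a chi-square per degree of freedom of 17.6 to 26.7, against 3.49 and 5.09 between replicates 2 and 3. CHIP-KO heated replicate 1 did so to a lesser degree, at 10.4 and 16.6. For named genes whose call changed and for list medians that moved by over 1.5 times when these libraries were left out, the values are given with and without them. A short RNA annotated as a microRNA, Gm23935, took 2.52% to 4.67% of the FPKM sum in unheated and 12.4% to 17.0% in heated libraries. Of 9 fibroblast markers 7 were tested, and Fap and Lum stayed under 1 FPKM in every library. No endothelial, epithelial, skeletal muscle or pluripotent marker passed the minimum. In bulk libraries, fewer cells of a type and less RNA per cell cannot be told apart.

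The change with heat differed between the genotypes for 4581 of the 13023 genes (35.2%) at an adjusted p under 0.05. These are the called genes below. The interaction was positive for 2328 genes (17.9%) and negative for 2253 genes (17.3%). It was at least 2-fold for 173 positive genes (1.33%) and 420 negative genes (3.23%). Scaling each library to an equal FPKM sum moved this split to 1765 positive and 2861 negative genes, and the median heat change of all tested genes from -0.016 to -0.21 in WT and from -0.0018 to -0.29 in CHIP-KO. Heat changes of the gene lists are on the deposited scale, relative to those first medians. Heat alone was called for 7640 genes (58.7%) in WT, with 28.1% of genes up and 30.5% down. In CHIP-KO it was called for 2607 genes (20%), with 8.65% up and 11.4% down. These contrasts share libraries with the interaction, so they are given side by side and not tested against it. Among called genes the median size of the heat change was 0.53 in WT and 0.12 in CHIP-KO. Called genes were selected by the difference between these same heat changes, so that selection shapes both medians. The heat change was larger in size in WT for 4071 of the 4581 called genes (88.9%), against 9391 of all 13023 tested genes (72.1%). In 218 genes the level rose with heat in WT and fell in CHIP-KO, and in 115 genes it fell in WT and rose in CHIP-KO.

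**Figure D1:**
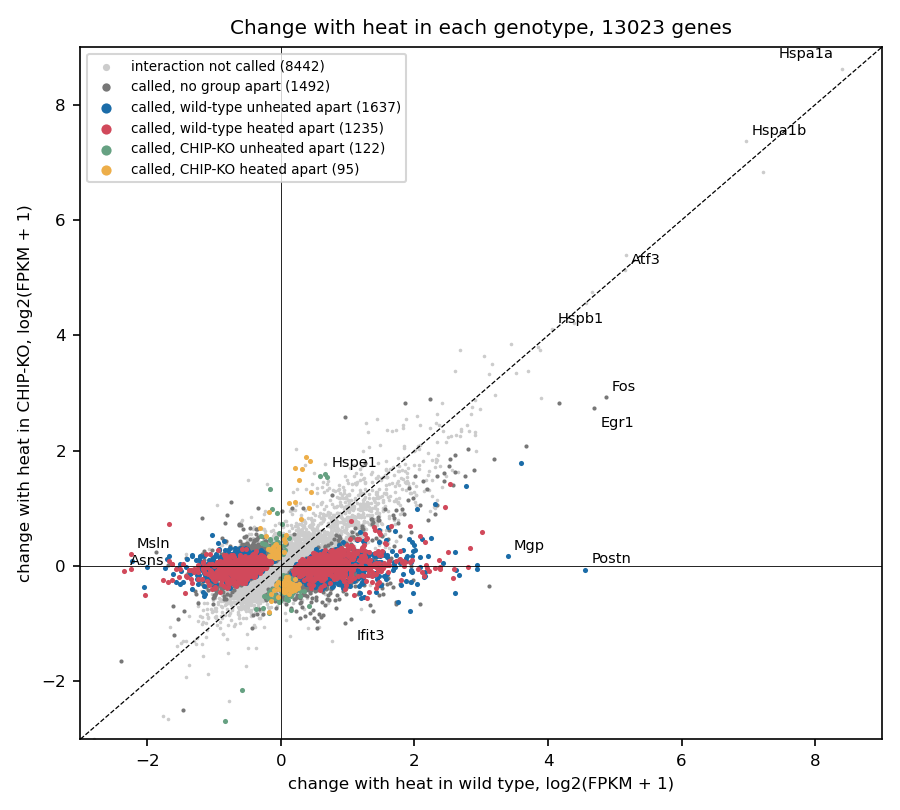
Log2 change with heat in WT (x axis) against CHIP-KO (y axis) for all 13023 tested genes on the log2(FPKM + 1) scale. Of the 4581 called genes, those in which a group stands apart are in colour and the other 1492 in dark grey. Genes not called are in light grey. Most called genes lie close to the horizontal axis: the median size of their heat change was 0.53 in WT and 0.12 in CHIP-KO. They were selected by the difference between these changes, which shapes both medians.

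For each gene, a group was said to stand apart where its mean log2(FPKM + 1) was the highest or lowest of the 4, its gap to the next group exceeded 0.5 of the whole range and its 3 libraries did not overlap the other 9. Unheated WT stood apart in 1637 called genes (35.7%), of which 887 were high and 750 low there, against 2314 of all tested genes (17.8%). Heated WT stood apart in 1235 called genes (27.0%), with 615 high and 620 low, against 1731 of all tested genes (13.3%). Unheated CHIP-KO stood apart in 122 called genes (2.66%), with 77 high and 45 low, against 421 of all tested genes (3.23%). Heated CHIP-KO stood apart in 95 called genes (2.07%), with 46 high and 49 low, against 260 of all tested genes (2%). In the remaining 1492 called genes (32.6%) no group stood apart. On the deposited scale a WT group thus stood apart more often than a CHIP-KO group. With libraries scaled to an equal FPKM sum, the 4 counts were 996, 642, 521 and 305 of 4626 called genes, in the same order of groups. With both WT replicates 1 left out, unheated CHIP-KO stood apart in 209 and heated CHIP-KO in 162 called genes. With CHIP-KO heated replicate 1 left out as well, the counts were 297 and 180.

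**Figure D2:**
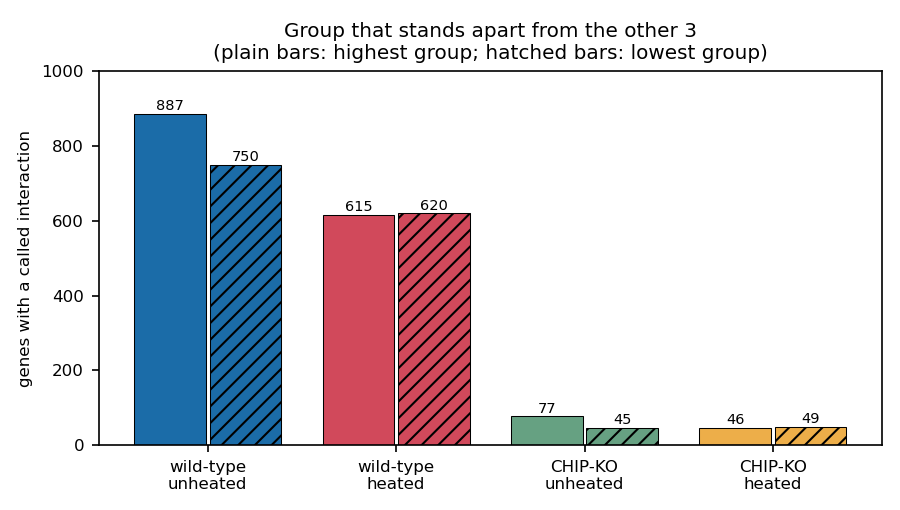
Number of called genes in which each of the 4 groups stands apart, split by whether its level is the highest or the lowest. The bars of both WT groups (1637 and 1235 genes) exceed those of both CHIP-KO groups (122 and 95 genes).

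The distances between group means, as the root mean square over all tested genes on the log2 scale, were shortest within CHIP-KO. Unheated and heated CHIP-KO lay 0.416 apart. Heated WT lay 0.501 from heated CHIP-KO, and unheated WT lay 0.573 from unheated CHIP-KO. WT moved 0.622 with heat. Libraries of 1 group lay 0.199 to 0.370 apart, so the shortest distance between groups exceeded the largest between replicates. Without both WT replicates 1 the WT heat distance was 0.590 and the CHIP-KO heat distance stayed 0.416. The first principal component held 40.0% and the second 36.4% of the variance.

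**Figure D3:**
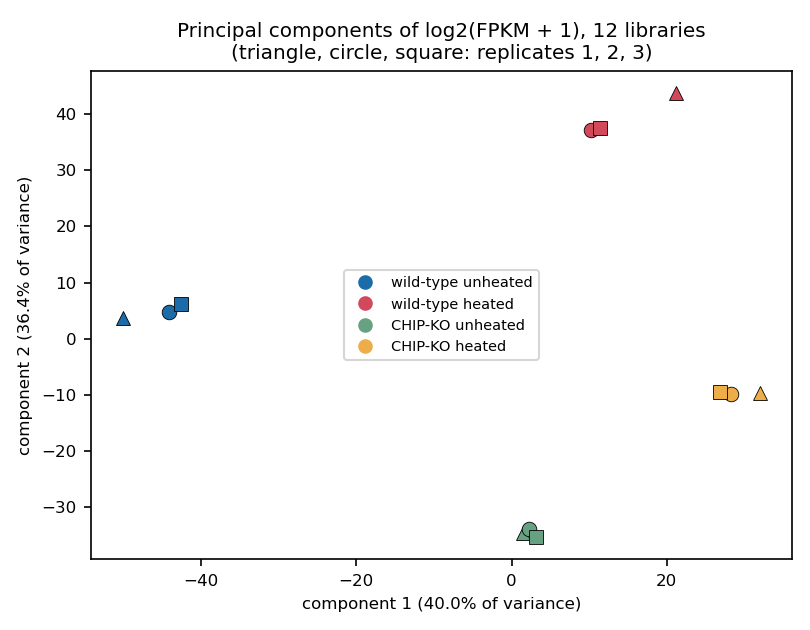
The 12 libraries on the first (40.0% of the variance) and second (36.4%) principal components of log2(FPKM + 1). A triangle, circle or square marks replicates 1, 2 and 3. The WT groups lie farther apart than the CHIP-KO groups, and the WT replicates 1 lie away from replicates 2 and 3 of their groups.

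The HSF1 targets Hspa1a, Hspa1b, Hspb1, Dnajb1 and Hsph1 rose with heat in both genotypes, while the wider chaperone list was mixed. Hspa1a, the main heat-inducible Hsp70 (ENSMUSG00000091971, chromosome 17, 34969190 to 34972156, minus strand), stood at 1.78, 2.53 and 2.44 FPKM in unheated WT, 1392, 994 and 927 in heated WT, 3.54, 3.46 and 3.44 in unheated CHIP-KO and 1852, 1890 and 1567 in heated CHIP-KO. The heated CHIP-KO libraries all lay above the heated WT libraries. The log2 rise was 8.39 in WT and 8.62 in CHIP-KO, and the interaction of 0.23 (95% interval -0.22 to 0.67) was not called (adjusted p = 0.417). Its near-identical copy Hspa1b, whose reads cannot be fully told apart from it, had an interaction of 0.41 (adjusted p = 0.0556). The small heat shock protein gene Hspb1 stood at 98.4, 85.1 and 81.9 FPKM in unheated WT, 2225, 1273 and 1145 in heated WT, 87.0, 82.9 and 86.2 in unheated CHIP-KO and 1966, 1442 and 1175 in heated CHIP-KO. Both heated groups of Hspb1 overlapped, and its interaction was 0.06 (95% interval -0.66 to 0.78, adjusted p = 0.910). Dnajb1, an Hsp40 partner of Hsp70, and Hsph1, an Hsp110 exchange factor, had interactions of 0.41 (adjusted p = 0.167) and 1.12 (adjusted p = 0.0891).

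These values depended on the WT replicates 1. In heated WT the first replicate was the highest of the 3 for Hspa1a, Hspa1b, Hspb1, Dnajb1 and Hsph1. Without both WT replicates 1, the interaction was called for Hspa1a at 0.52 (adjusted p = 0.00451), Hspa1b at 0.56 (adjusted p = 0.00297), Dnajb1 at 0.67 (adjusted p = 0.00993), Hspb8 at 0.66 (adjusted p = 0.0443) and Hsph1 at 1.49 (adjusted p = 0.00555). All of these stayed called with CHIP-KO heated replicate 1 left out too, at 0.48, 0.51, 0.56, 0.48 and 1.21 in that order. Hspb1 was still not called, at 0.27 (adjusted p = 0.399) without both WT replicates 1. It was 0.08 (adjusted p = 0.663) with the CHIP-KO library left out too. Bag3, an Hsp70 co-chaperone (-0.03, adjusted p = 0.947), was not called either way, and its sign changed without those libraries. Leaving out WT heated replicate 1 alone called Hspa1b, Hspb8, Dnajb1 and Hsph1. Hsf1 itself had an interaction of 0.25 (adjusted p = 0.0926). It was called at 0.28 (adjusted p = 0.0163) once CHIP-KO heated replicate 1 was left out too.

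Of 37 listed inducible cytosolic chaperone genes 35 were tested, and the interaction was positive for 15 and negative for 2, Hspb6 and Dnajb6. The list's median interaction was 0.33, against -0.0029 over all tested genes. With heat 16 rose, 10 fell and 9 were not called in WT (median 0.12), and 20 rose, 1 fell and 14 were not called in CHIP-KO (median 0.31). On the equal-sum scale these medians were -0.09 and -0.03. Without both WT replicates 1, 21 interactions were positive and 3 negative, and with CHIP-KO heated replicate 1 left out too, 22 and 4.

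Several abundant chaperones started low in unheated CHIP-KO and ended near the WT level after heat. Hsp90aa1, the inducible Hsp90, stood at 436, 345 and 326 FPKM in unheated WT, 714, 518 and 447 in heated WT, 202, 195 and 198 in unheated CHIP-KO and 737, 564 and 491 in heated CHIP-KO. The unheated CHIP-KO libraries lay below all others, while both heated groups overlapped. The Hsp90aa1 interaction was 0.98 (SE 0.258, adjusted p = 0.0125).

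The 5 genes with the largest gap for unheated CHIP-KO were Fam189b, Hspe1, Rpl21, Hspd1 and Hsp90aa1, all low there. Of all 122 called genes in which this group stood apart, 77 were high and 45 low. Fam189b stood at 9.91, 8.54 and 9.56 FPKM in unheated WT, 19.0, 14.1 and 14.4 in heated WT, 1.69, 1.77 and 1.57 in unheated CHIP-KO and 8.09, 6.59 and 5.80 in heated CHIP-KO. No pair of its groups overlapped, and the interaction was 0.85 (SE 0.173, adjusted p = 0.00318).

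Hspe1 (ENSMUSG00000073676, chromosome 1, 55088132 to 55091307, plus strand), the Hsp10 lid of the mitochondrial chaperonin, stood at 171, 159 and 154 FPKM in unheated WT, 310, 241 and 224 in heated WT, 75.0, 72.3 and 68.1 in unheated CHIP-KO and 239, 216 and 205 in heated CHIP-KO. Unheated CHIP-KO was again lowest with no overlap, and the heated groups overlapped. The log2 rise was 0.66 in WT and 1.60 in CHIP-KO, an interaction of 0.94 (SE 0.152, adjusted p = 0.000737). Hspd1, which encodes Hsp60 and lies head to head with Hspe1 on the other strand, showed 331, 255 and 234, then 344, 232 and 220 FPKM in unheated and heated WT. In CHIP-KO it measured 134, 125 and 124 FPKM before and 283, 237 and 209 after heat. Heat left Hspd1 uncalled in WT (-0.06, adjusted p = 0.801), and it rose by 0.91 in CHIP-KO, an interaction of 0.97 (adjusted p = 0.0115). The annotated 5′ ends of the pair overlap, and the counting is not stated to use strand, so reads there cannot be told apart.

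The promoter of Hspe1 is shown because Hspe1 was among the genes in which unheated CHIP-KO stood apart with the largest gap. The window runs from 250 bases before to 50 bases after the RefSeq start (GRCm38.p6, chr1:55087898-55088197, plus strand), and capitals mark a pair of overlapping heat shock elements. The motif searched was 3 alternating GAA and TTC units, each 2 bases from the next, on both strands, which 0.603% of all 32851 RefSeq windows of this length hold. In the inducible cytosolic chaperone list, to which Hspe1 does not belong, 3 of the 30 genes with a window (10%) held one, in 5 of 42 windows.
Hspe1: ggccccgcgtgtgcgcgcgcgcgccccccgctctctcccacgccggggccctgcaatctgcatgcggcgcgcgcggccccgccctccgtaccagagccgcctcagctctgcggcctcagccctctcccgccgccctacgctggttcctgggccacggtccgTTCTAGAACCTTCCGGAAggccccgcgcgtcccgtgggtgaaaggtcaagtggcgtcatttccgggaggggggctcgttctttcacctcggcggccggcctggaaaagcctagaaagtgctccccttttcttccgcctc

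Of 14 mitochondrial chaperones and proteases, 7 had a positive interaction and 7 were not called, with a median of 0.36. The called genes were Hspd1, Hspe1, Hspa9, Htra2, Grpel1, Afg3l2 and Dnaja3. Among 8 tested heat shock factors and regulators only Vcp, the segregase that extracts ubiquitinated proteins, was called (0.75, adjusted p = 0.00292), and the list's median of 0.04 became -0.06 on the equal-sum scale, 0.10 without both WT replicates 1 and 0.02 without CHIP-KO heated replicate 1 too.

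**Figure D4:**
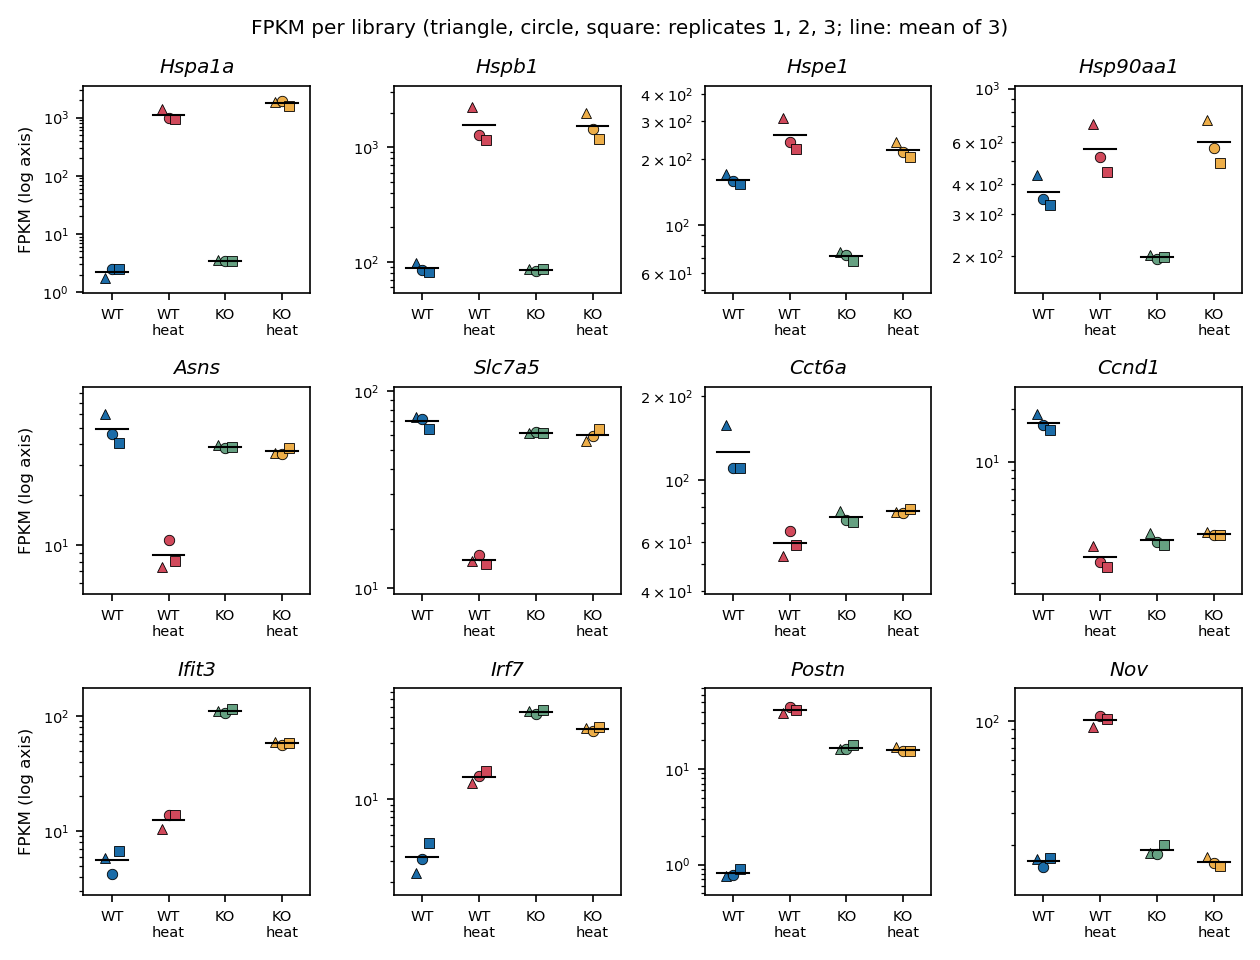
FPKM of 12 genes in each library on log axes, by group, with a triangle, circle or square for replicates 1, 2 and 3. Hspa1a and Hspb1 rise in both genotypes, Hspe1 and Hsp90aa1 are lowest in unheated CHIP-KO, Asns and Slc7a5 are lowest in heated WT, and Ccnd1 is highest in unheated WT.

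The TRiC chaperonin, which folds actin, tubulin and other cytosolic proteins, had a positive interaction for all 8 tested subunits, with a median of 0.86. All 8 fell in WT (median -0.65). In CHIP-KO 2 rose and the other 6 were not called (median 0.22, or -0.12 on the equal-sum scale). Cct6a stood at 157, 111 and 111 FPKM in unheated WT, 53.6, 65.8 and 58.5 in heated WT, 77.4, 72.2 and 71.0 in unheated CHIP-KO and 76.6, 76.0 and 79.0 in heated CHIP-KO. Unheated WT lay above every other library and heated WT below every other library. Its interaction was 1.14 (SE 0.172, adjusted p = 0.000477).

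Proteasome subunits moved the same way. Of 33 tested, 30 had a positive interaction, with a median of 0.66, and Sem1, Psmb1 and Psmb2 were not called. In WT 31 fell with heat and 1 rose (median -0.58), and the median heat change in CHIP-KO was 0.10 (or -0.23 on the equal-sum scale). Unheated WT stood apart as highest in 14 and heated WT as lowest in 8. Psmd1, a scaffold of the 19S cap, stood at 52.0, 48.3 and 43.4 FPKM in unheated WT and 25.5, 29.6 and 28.3 in heated WT. In unheated CHIP-KO it stood at 29.5, 29.0 and 29.0 FPKM and in heated CHIP-KO at 32.0, 31.5 and 31.6. Unheated WT was separate from all other libraries, and the interaction was 0.88 (SE 0.0973, adjusted p = 6.16e-05).

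Genes that make ribosomes and start translation gave the next group. Of 22 nucleolar ribosome biogenesis genes, 21 had a positive interaction (median 0.68), and Pes1 was not called. All 22 fell in WT (median -0.66), and the median heat change in CHIP-KO was 0.03 (or -0.28 on the equal-sum scale). Mybbp1a, a nucleolar Myb-binding protein, stood at 68.3, 66.6 and 58.6 FPKM in unheated WT, 31.2, 31.6 and 29.8 in heated WT, 48.4, 47.1 and 47.3 in unheated CHIP-KO and 47.1, 48.9 and 49.8 in heated CHIP-KO. Heated WT lay below all other libraries, and the interaction was 1.07 (SE 0.083, adjusted p = 5.14e-06). Of 30 translation initiation and elongation genes, 20 had a positive interaction and the other 10 were not called. Eif4ebp1, a brake on cap-dependent translation that ATF4 induces, was among them at 0.84 (adjusted p = 0.000144).

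Of 44 cytosolic ribosomal protein genes, 28 had a positive interaction and 16 were not called (median 0.44). With heat 19 fell and 2 rose in WT, and 24 rose in CHIP-KO while the other 20 were not called. The median heat change was -0.13 in WT and 0.28 in CHIP-KO. Scaling to an equal FPKM sum gave medians of -0.37 and -0.05, so the sign of the CHIP-KO median depends on the scaling, and 25 interactions were positive on that scale. Heated CHIP-KO stood apart as highest for 6 of these genes, Rpl5, Rpl10a, Rpl19 and Rpl23 among them. Ribosomal protein genes have many processed pseudogenes, so their reads could be split among copies. Rpl21, whose libraries spread widely, lost its call (1.12, adjusted p = 0.0391) in 10 of the 12 fits that left out 1 library, with values of 0.85 to 1.40 over the 12. It was 0.96 without both WT replicates 1 (adjusted p = 0.0843).

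The ATF4 amino acid program, which supplies serine, asparagine and amino acid transporters under stress, was lowest in heated WT for most of its called genes. Of 31 listed genes 28 were tested, and 23 had a positive and 2 a negative interaction, Ddit3 and Ddit4, with a list median of 0.89. In WT 21 fell with heat and 3 rose (median -0.94), and in CHIP-KO 5 rose and 3 fell (median -0.04). Heated WT stood apart as lowest in 16. The Ddit3 interaction of -0.75 (adjusted p = 0.0353) was -0.92 to -0.60 over the 12 fits that left out 1 library, and it was not called in 8 of them (adjusted p up to 0.0835). It was -0.45 without both WT replicates 1 (adjusted p = 0.108), and without CHIP-KO heated replicate 1 too it was -0.62 (adjusted p = 0.00151).

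Asns, asparagine synthetase (ENSMUSG00000029752, chromosome 6, 7675169 to 7693254, minus strand), stood at 60.3, 45.9 and 40.5 FPKM in unheated WT, 7.41, 10.8 and 8.04 in heated WT, 39.1, 37.9 and 38.4 in unheated CHIP-KO and 35.5, 34.6 and 38.0 in heated CHIP-KO. Heated WT lay far below the other 9 libraries. Asns fell by 2.35 in WT and was not called for heat in CHIP-KO (-0.09, adjusted p = 0.694), an interaction of 2.26 (SE 0.200, adjusted p = 1.29e-05). Slc7a5, the LAT1 transporter of large neutral amino acids, stood at 73.7, 72.3 and 63.6 FPKM in unheated WT and 13.8, 14.7 and 13.2 in heated WT. In CHIP-KO it stood at 61.2, 61.6 and 61.4 FPKM without heat and 55.8, 59.0 and 63.7 with heat. Again heated WT alone was low, and the interaction was 2.20 (SE 0.0959, adjusted p = 1.67e-07). Psat1 and Phgdh, of the serine synthesis pathway, had interactions of 1.97 and 1.67. Atf4 itself, named after its values were seen, had an interaction of 0.35 (adjusted p = 0.0102). Its mRNA stood at 125, 112 and 111 FPKM in unheated WT, 123, 128 and 114 in heated WT, 96.7, 96.5 and 99.2 in unheated CHIP-KO and 137, 127 and 127 in heated CHIP-KO. Atf4 was not called for heat in WT (0.06, adjusted p = 0.404), and it rose by 0.42 in CHIP-KO (adjusted p = 0.00122), where unheated libraries lay below the other 9.

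The Asns promoter window is shown because Asns had the largest interaction of this program (GRCm38.p6, chr6:7693160-7693459, minus strand, RefSeq). The motif searched was TGATGNAA on both strands, capitals mark its 1 match, and 3.97% of all windows hold it. In the ATF4 list 9 of the 24 genes with a window did, in 9 of 26 windows (34.6%).
Asns: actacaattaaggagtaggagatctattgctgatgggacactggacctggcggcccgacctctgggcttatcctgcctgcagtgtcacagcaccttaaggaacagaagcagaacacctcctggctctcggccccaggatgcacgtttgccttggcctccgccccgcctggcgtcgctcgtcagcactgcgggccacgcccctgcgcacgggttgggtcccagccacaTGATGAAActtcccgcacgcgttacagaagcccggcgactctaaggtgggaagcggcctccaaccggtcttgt

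G2 and mitosis genes moved together, while the other cell cycle lists were mixed. All 30 G2 and mitosis genes had a positive interaction, from 0.45 to 1.38 with a median of 0.90. All 30 fell in WT (median -1.02), and in CHIP-KO 1 fell (median -0.05). Unheated WT stood apart as highest in 13 and heated WT as lowest in 10. Cdc20, which activates the anaphase promoting complex, stood at 144, 128 and 120 FPKM in unheated WT, 44.2, 56.8 and 59.6 in heated WT, 65.1, 63.9 and 63.6 in unheated CHIP-KO and 63.7, 70.9 and 73.2 in heated CHIP-KO. Unheated WT was separate at the top and heated WT at the bottom. Its interaction was 1.38 (SE 0.15, adjusted p = 5.33e-05), and that of Plk1, the polo-like mitotic kinase, was 1.26 (adjusted p = 9.42e-05).

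Of 29 G1/S and replication genes, 8 had a positive and 3 a negative interaction, Mcm4, Mcm6 and Rfc3, with a list median of 0.15. Calls in either direction were about as common here as over all tested genes (35.2% called, 17.9% positive and 17.3% negative). The list median was 0.05 on the equal-sum scale. It was 0.09 with 11 positive without both WT replicates 1, and 0.06 with 12 positive without CHIP-KO heated replicate 1 too. Rrm2, a subunit of ribonucleotide reductase, had the largest at 1.41 (SE 0.0879, adjusted p = 1.26e-06). Among 14 tested D cyclins, Myc and CDK inhibitors, Ccnd1 and Ccnd2 were positive. Negative were 5: the inhibitors Cdkn1a (p21), Cdkn1b (p27) and Cdkn1c with Rb1 and Cdk4. Without both WT replicates 1 and CHIP-KO heated replicate 1, 3 were positive and 8 negative. Ccnd1, cyclin D1, stood at 18.7, 16.3 and 15.2 FPKM in unheated WT, 3.28, 2.66 and 2.49 in heated WT, 3.87, 3.43 and 3.31 in unheated CHIP-KO and 3.93, 3.78 and 3.78 in heated CHIP-KO. Only unheated WT was high, and heated WT lay just below both CHIP-KO groups. The Ccnd1 interaction was 2.31 (SE 0.128, adjusted p = 5.77e-07). Cdkn1a stood at 7.73, 7.64 and 7.87 FPKM in unheated WT and 22.3, 20 and 21.1 in heated WT. In CHIP-KO it stood at 9.47, 9.89 and 10.8 FPKM without heat and 11.6, 10.3 and 10.9 with heat, where the groups overlapped. Its interaction was -1.23 (SE 0.0873, adjusted p = 2.8e-06).

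Interferon-stimulated genes, which antiviral interferon signalling induces, mostly rose with heat in WT and more often fell than rose in CHIP-KO. Of 35 effectors, 30 had a negative interaction, with a median of -1.30, and Cmpk2, Ifitm2, Isg20, Oasl1 and Samhd1 were not called. With heat 31 rose and 1 fell in WT (median 0.95), and 3 rose and 17 fell in CHIP-KO (median -0.27). The starting levels differed: 34 of 35 were higher in CHIP-KO than in WT without heat (median log2 difference 2.31), as were 23.9% of all tested genes. After heat 32 were higher (median 1.25), against 23.3% of all tested genes. In 22 of the 30 no group stood apart.

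Ifit3 (ENSMUSG00000074896, chromosome 19, 34583531 to 34588731, plus strand), an interferon-induced tetratricopeptide repeat protein, stood at 5.82, 4.28 and 6.75 FPKM in unheated WT, 10.3, 13.8 and 13.7 in heated WT, 109, 107 and 114 in unheated CHIP-KO and 59.4, 55.5 and 58.2 in heated CHIP-KO. None of the 4 groups overlapped another. It rose by 1.05 in WT and fell by 0.92 in CHIP-KO, an interaction of -1.96 (SE 0.187, adjusted p = 2.17e-05). Its copy Ifit3b is nearly identical, so the split of reads between them is uncertain. Bst2 (tetherin, which holds budding virus at the membrane; ENSMUSG00000046718, chromosome 8, 71534255 to 71537456, minus strand) stood at 35.1, 34.8 and 36.5 FPKM in unheated WT and 123, 139 and 154 in heated WT. In CHIP-KO it stood at 546, 531 and 587 FPKM without heat and 480, 439 and 458 with heat. The groups were again separate, and the interaction was -2.20 (SE 0.111, adjusted p = 4.37e-07).

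Both promoters are shown because Ifit3 was called for heat in opposite directions and Bst2 had an interaction among the largest of the list. The motif, the interferon-stimulated response element, was a pair of GAAA units 2 bases apart on either strand, in capitals, held by 3.44% of all windows. Ifit3 (GRCm38.p6, chr19:34583279-34583578, plus strand) has 2 separate matches and Bst2 (chr8:71537423-71537722, minus strand) has 2 that overlap. A share over this list's windows is not given, since only 26 of its 35 genes (74.3%) had one.
Ifit3: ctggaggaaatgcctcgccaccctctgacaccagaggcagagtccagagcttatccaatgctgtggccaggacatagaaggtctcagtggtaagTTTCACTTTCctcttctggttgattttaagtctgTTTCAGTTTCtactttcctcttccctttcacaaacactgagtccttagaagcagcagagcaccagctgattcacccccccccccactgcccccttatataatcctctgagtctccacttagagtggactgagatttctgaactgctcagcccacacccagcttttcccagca
Bst2: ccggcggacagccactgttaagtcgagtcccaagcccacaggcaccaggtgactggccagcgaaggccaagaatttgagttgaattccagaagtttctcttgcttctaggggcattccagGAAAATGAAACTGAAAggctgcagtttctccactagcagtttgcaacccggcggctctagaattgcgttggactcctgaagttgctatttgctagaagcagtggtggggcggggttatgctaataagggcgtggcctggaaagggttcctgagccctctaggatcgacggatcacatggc

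The regulators of this pathway and the genes of antigen presentation also had mostly negative interactions. Of 22 tested IRF, STAT and RNA sensor genes, 14 had a negative and 1, Mavs, a positive interaction (median -0.58). Irf7, the master regulator of type I interferon, stood at 2.35, 3.14 and 4.23 FPKM in unheated WT, 13.8, 15.6 and 17.1 in heated WT, 55.4, 52.7 and 57.1 in unheated CHIP-KO and 39.6, 37.5 and 41.0 in heated CHIP-KO. All 4 groups were separate, and the interaction was -2.45 (SE 0.187, adjusted p = 4.31e-06). Of 17 MHC class I and immunoproteasome genes, 15 had a negative interaction (median -1.01), Erap1 and Psme2 were not called, and unheated WT stood apart as lowest in 10. Nlrc5, the transactivator of MHC class I, stood at 0.912, 1.28 and 1.26 FPKM in unheated WT, 5.66, 4.53 and 4.91 in heated WT, 4.98, 5.81 and 5.22 in unheated CHIP-KO and 3.96, 3.95 and 4.29 in heated CHIP-KO. Heated WT overlapped unheated CHIP-KO, and the interaction was -1.81 (SE 0.129, adjusted p = 2.87e-06). Reads of the class I H2 genes are shared among near-identical copies. The interferon response motif was in 6 of 20 windows (30.0%) of the regulators and 5 of 17 (29.4%) of the MHC list.

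**Figure D5:**
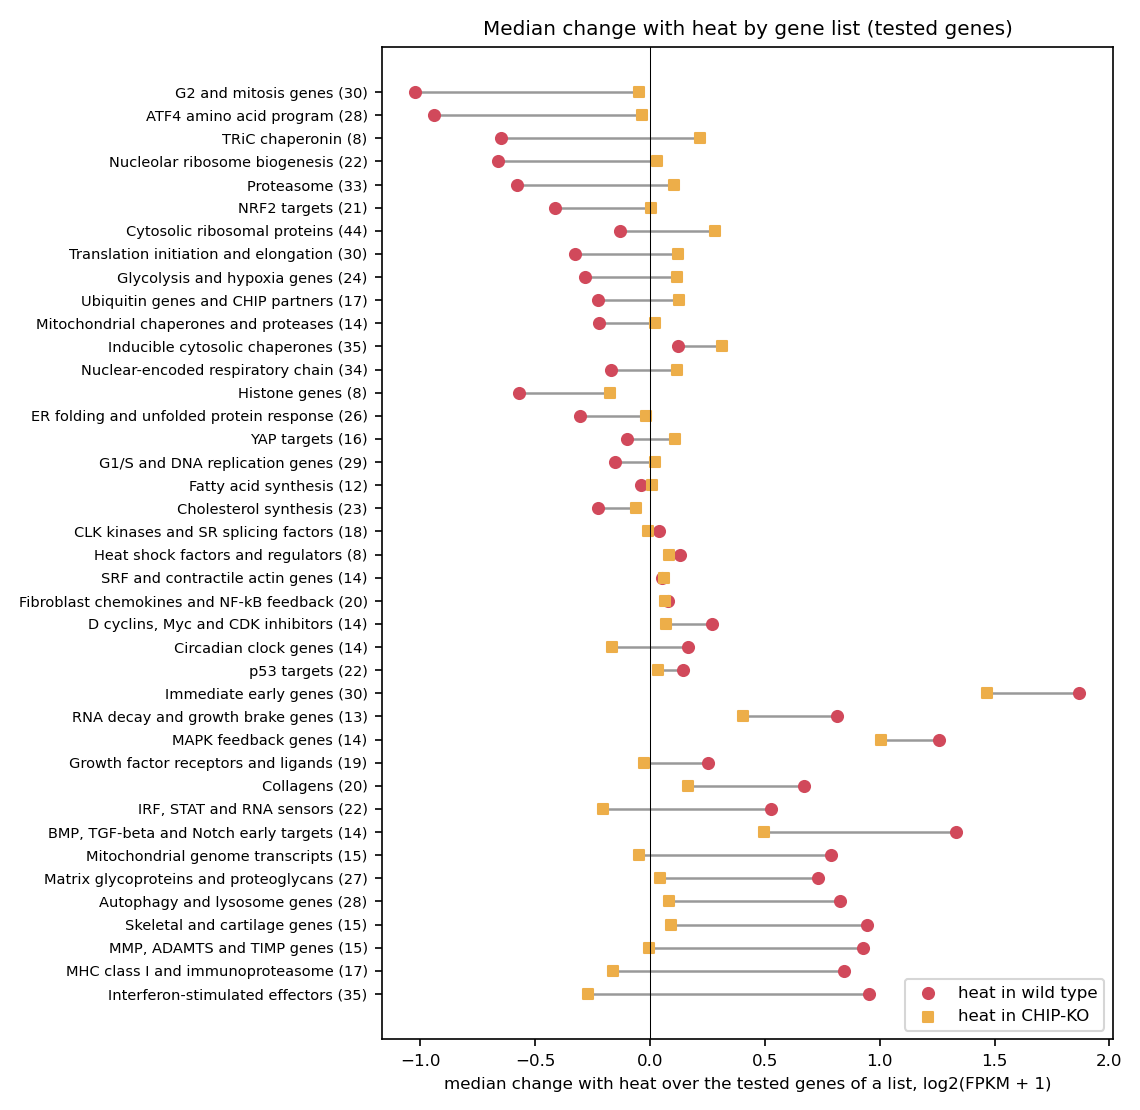
Median log2 change with heat of each process list in WT and in CHIP-KO, with the lists ordered by the median interaction. The list of metallothioneins and zinc response, with 4 tested genes, is not drawn. G2 and mitosis genes fell in WT by a median of 1.02 against a CHIP-KO median of -0.05, and interferon effectors had medians of 0.95 in WT and -0.27 in CHIP-KO.

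Several of the strongest negative interactions were those of extracellular matrix genes. Postn, periostin, a matrix protein of collagen-rich tissue (ENSMUSG00000027750, chromosome 3, 54361109 to 54391037, plus strand), stood at 0.766, 0.775 and 0.898 FPKM in unheated WT, 38.7, 44.3 and 41.8 in heated WT, 16.1, 16.1 and 17.8 in unheated CHIP-KO and 17.1, 15.4 and 15.4 in heated CHIP-KO. Unheated WT alone was below 1, and heated WT was the highest of the 4. Postn rose by 4.55 in WT and was not called in CHIP-KO (-0.06, adjusted p = 0.580), which gave an interaction of -4.61 (SE 0.0954, adjusted p = 5.88e-10). Mgp, matrix Gla protein, an inhibitor of calcification, stood at 8.55, 6.54 and 8.01 FPKM in unheated WT and 80.7, 95.9 and 94.3 in heated WT. In CHIP-KO it stood at 125, 123 and 127 FPKM without heat and 135, 140 and 147 with heat. Unheated WT was low and apart, and the interaction was -3.22 (SE 0.126, adjusted p = 1.1e-07).

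Of 27 tested matrix glycoproteins and proteoglycans, 15 had a negative and 2 a positive interaction, Loxl2 and Nid1 (median -0.71). Of 20 tested collagens, 11 were negative and 3 positive, Col7a1, Col8a1 and Col18a1 (median -0.52). Of 15 tested matrix protease and inhibitor genes, 10 were negative and 1, Adamts5, positive (median -0.88). Of 15 tested skeletal and cartilage genes, 12 were negative and 1, Runx3, positive (median -0.85). Unheated WT stood apart as lowest in 9, 6, 4 and 7 of the called genes of these lists, in that order. Col6a2, a chain of microfibrillar collagen VI, stood at 16.1, 18.7 and 19.8 FPKM in unheated WT, 83.9, 89.0 and 88.5 in heated WT, 69.9, 68.9 and 72.8 in unheated CHIP-KO and 77.6, 81.6 and 79.1 in heated CHIP-KO. Unheated WT was far below the rest, and the interaction was -2.04 (SE 0.0947, adjusted p = 2.63e-07). Mmp3, stromelysin, was measured at 5.01, 4.42 and 4.71 FPKM in heated WT and at most 0.370 in the other 9 libraries. It was thus high in heated WT alone, with an interaction of -2.26 (SE 0.149, adjusted p = 1.83e-06).

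Fibroblast markers differed between the groups as well. Their summed FPKM ranged over 1405 to 1822 (unheated WT), 1717 to 2047 (heated WT), 2820 to 2974 (unheated CHIP-KO) and 3168 to 3362 (heated CHIP-KO). Of the 7 tested markers the interaction was negative for Pdgfra, Pdgfrb and Col1a2 and positive for Vim. Pdgfra, a receptor of platelet-derived growth factor that marks fibroblasts, stood at 1.10, 1.10 and 0.808 FPKM in unheated WT, 3.55, 3.09 and 2.93 in heated WT, 19.6, 18.1 and 19.5 in unheated CHIP-KO and 16.0, 15.9 and 16.3 in heated CHIP-KO. No 2 groups overlapped. The part of cell composition in the matrix result was not tested.

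Lysosomal genes formed a further negative group. Of 28 autophagy and lysosome genes, 20 had a negative and 1, Atg5, a positive interaction (median -0.74). In WT 23 rose and 2 fell, and in CHIP-KO 4 rose and 1 fell. Hexa, a subunit of lysosomal hexosaminidase, stood at 36.6, 36.9 and 39.4 FPKM in unheated WT, 124, 137 and 132 in heated WT, 62.9, 64.8 and 73.3 in unheated CHIP-KO and 75.3, 75.2 and 69.4 in heated CHIP-KO. The CHIP-KO groups overlapped and the WT groups lay below and above them. The interaction was -1.64 (SE 0.0947, adjusted p = 7.53e-07).

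Most immediate early genes, which kinase signalling induces within minutes, rose with heat in both genotypes. Of 30 tested, 11 had a negative interaction (median -0.31) and 19 were not called. In WT 26 rose and 4 were not called, and in CHIP-KO 23 rose and 7 were not called. Without heat 15 of the 30 were higher in CHIP-KO than in WT and the other 15 were not called. Without both WT replicates 1, 6 interactions were negative and 1 positive (median -0.16), and with CHIP-KO heated replicate 1 left out too, 15 were negative and 1 positive (median -0.34). Fos, a subunit of AP-1, stood at 2.16, 1.69 and 1.60 FPKM in unheated WT, 96.3, 81.5 and 67.1 in heated WT, 7.92, 9.69 and 11.1 in unheated CHIP-KO and 94.2, 82.8 and 63.0 in heated CHIP-KO. The heated groups overlapped and the unheated groups did not. The Fos interaction was -1.93 (SE 0.239, adjusted p = 0.000124), and that of the zinc finger factor Egr1 was -1.96 (SE 0.165, adjusted p = 8.62e-06). Jun (-0.17, adjusted p = 0.452) and Atf3 (-0.01, adjusted p = 0.985) were not called.

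Early targets of BMP, TGF-beta and Notch gave 9 negative interactions among 14 tested (median -0.61), and the other 5 were not called. Id1, an inhibitor of helix-loop-helix factors and a BMP target, stood at 74.3, 62.0 and 72.7 FPKM in unheated WT, 261, 147 and 138 in heated WT, 80.0, 101 and 109 in unheated CHIP-KO and 95.7, 63.2 and 56.7 in heated CHIP-KO. Heated WT alone was high, and the interaction was -1.76 (SE 0.347, adjusted p = 0.0025). The Notch target Hes1 (-1.23, adjusted p = 0.0284) was not called in 6 of the 12 fits that left out 1 library, with values of -1.50 to -0.92 over the 12.

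The 20 genes with the largest interactions, 10 in each direction among protein-coding genes with a mean of at least 5 FPKM in their highest group, mostly turned on a WT group. Unheated WT stood apart in 10 of them, 3 high and 7 low, and heated WT in 6, 1 high and 5 low. No CHIP-KO group stood apart in any, and in the other 4 no group did. The positive genes were Msln, Krt19, Ccnd1, Asns, Slc7a5, Ankrd1, Psat1, Hmga1, Tmem238 and Erfe, at 1.71 to 2.46. The negative genes, at -4.61 to -2.72, included Postn, Plxdc2, Mgp, Ifi27l2a, Serpinf1, Fmod, Nov, Islr and Txnip.

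Nov (Ccn3), a secreted matricellular protein, stood at 16.5, 14.9 and 16.7 FPKM in unheated WT, 93.2, 107 and 102 in heated WT, 18.0, 17.7 and 19.9 in unheated CHIP-KO and 17.1, 15.7 and 15.2 in heated CHIP-KO. It was high in heated WT, and the other 3 groups lay between 14.9 and 19.9. The interaction was -2.78 (SE 0.102, adjusted p = 9.57e-08). Rspo2, a secreted amplifier of Wnt signalling, stood apart in heated WT in the same way, at 10.3, 9.80 and 10.9 FPKM against at most 1.58 in the other libraries. Msln, mesothelin, moved the other way, from 29.7, 30.4 and 30.1 FPKM in unheated WT to 5.37, 5.97 and 5.33 in heated WT. In CHIP-KO its level was 31.9, 30.9 and 27.6 FPKM before and 31.0, 38.0 and 36.2 after heat. Heated WT was low and apart, and the interaction was 2.46 (SE 0.110, adjusted p = 1.97e-07).

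Msln and Krt19, an intermediate filament of epithelia and mesothelium, are both mesothelial markers. The other 5 markers of that list, Krt8, Krt18, Upk3b, Wt1 and Lrrn4, stayed under 1 FPKM in every library. The summed FPKM of the list ranged over 42.5 to 46.7 (unheated WT), 8.97 to 10.5 (heated WT), 36.9 to 41.6 (unheated CHIP-KO) and 51.2 to 52.5 (heated CHIP-KO). Of 6 macrophage and blood markers only 1 was tested, Cd68, which rose with heat by 2.09 in WT and 1.06 in CHIP-KO. The sums of that list were 2.0 to 3.41, 13.4 to 15.8, 3.94 to 4.61 and 8.56 to 10.8 FPKM in the same order of groups. Ptprc, Adgre1, Csf1r and Itgam stayed under 1 FPKM in every library.

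Of the genes called for heat in opposite directions, Txnip, an arrestin that limits glucose uptake, stood at 8.62, 7.79 and 8.55 FPKM in unheated WT, 27.8, 38.5 and 38.6 in heated WT, 40.8, 41.3 and 45.8 in unheated CHIP-KO and 20, 30.4 and 23.7 in heated CHIP-KO. It rose by 1.93 in WT and fell by 0.78 in CHIP-KO, an interaction of -2.72 (SE 0.209, adjusted p = 4.66e-06). Ankrd1, a muscle ankyrin repeat protein and YAP target, did the reverse. It stood at 28, 22.1 and 19.1 FPKM in unheated WT, 14.0, 8.73 and 6.85 in heated WT, 13.4, 13.8 and 12.6 in unheated CHIP-KO and 33.9, 22 and 19.8 in heated CHIP-KO. Unheated WT overlapped heated CHIP-KO, and heated WT overlapped unheated CHIP-KO. The interaction was 2.02 (SE 0.340, adjusted p = 0.000928). Krt19, the chemokine gene Ccl2 and the creatine kinase gene Ckb also fell in WT and rose in CHIP-KO, with interactions of 2.40, 1.21 and 1.58.

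The few genes in which heated CHIP-KO stood apart had smaller interactions. Those with the largest gap were Pnrc1 and Antxr2, low there, and Cdr2, Mllt11 and Lama5, high there. Cdr2, which encodes a cytoplasmic coiled-coil protein, stood at 6.02, 4.69 and 4.30 FPKM in unheated WT, 4.75, 4.08 and 3.52 in heated WT, 5.04, 5.12 and 5.23 in unheated CHIP-KO and 8.89, 7.35 and 7.35 in heated CHIP-KO. Heated CHIP-KO was above the other 9 libraries, which overlapped, and the interaction was 0.75 (SE 0.163, adjusted p = 0.00435). Antxr2, a collagen-binding anthrax toxin receptor, stood at 7.30, 6.51 and 6.05 FPKM in heated CHIP-KO and at 9.16 or more in the others, with an interaction of -0.61 (SE 0.128, adjusted p = 0.00348). Lama5, the laminin alpha-5 chain (0.42, adjusted p = 0.0169), was not called when libraries were scaled to an equal FPKM sum (0.32, adjusted p = 0.0655).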

How the data were processed

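RNA was measured by sequencing of poly(A)-captured libraries from 12 MEF samples, per the labels' protocols. The authors deposited FPKM per gene. The submitters' processing notes name HISAT2, while its version, the counter, the strand setting and the genome build are not stated there or in the labels. Gene positions are those of the deposited table. Of its 54532 genes, 53585 had the identical position in GENCODE M21 (GRCm38). Whole fragments could be recovered from the FPKM steps for 100% of values (tolerance 0.01), at 15591924 to 26954112 per library.

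The 13023 genes that reached 1 FPKM in 3 or more of 12 libraries were tested on log2(FPKM + 1) with limma 3.58.1 (trend, R 4.3.3) over the 4 groups, with Benjamini-Hochberg adjustment over all of them. A fold change on log2(FPKM + 1) understates the change of low genes. The fit was also run on simulated libraries that all had the same spread, with changes placed in heated CHIP-KO alone. The real libraries differ in both respects, so that run does not measure the error of the calls here. Genes named are the 10 largest interactions in each direction (highest group mean of at least 5 FPKM), the 5 largest gaps per group standing apart, the 4 strongest opposite heat responses in each direction, up to 4 members of each of 41 process lists, and 14 fixed genes. Members and lists were chosen with earlier results of these data known. Voom on the recovered fragments, other scalings, filters, pseudocounts, library weights, blocks and left-out libraries were the alternatives. Promoter windows (RefSeq, GRCm38.p6) existed for 8984 of 13020 tested symbols (69.0%), so motif shares over all tested genes are void and not given. No sample was left out of the values in the report unless stated. Some genes that the naming rule chose are not reported here.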

Additional observations from a re-analysis of the deposited data

Results flagged for a closer look

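The heat effect differed between the genotypes for 4581 genes by the test of the interaction itself. In 218 genes the level rose with heat in WT and fell in CHIP-KO, and in 115 it fell in WT and rose in CHIP-KO, each change called on its own. Groups of 3 libraries are too small for a gap test of single outlying values, and the fits that left out each library in turn are given with the processing.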

How the results depend on the processing

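Of the 4581 calls, no gene changed sign while called under any alternative. Leaving out 1 library at a time gave 3793 to 4870 called genes, 1899 to 2491 positive, 1883 to 2379 negative, 551 to 660 at least 2-fold, and 1437 to 1740, 1065 to 1347, 88 to 165 and 65 to 126 called genes in which unheated WT, heated WT, unheated CHIP-KO and heated CHIP-KO stood apart. Genes at least 2-fold numbered 1014 with a pseudocount of 0.1, 388 with a mean FPKM of at least 5 and 1067 with voom. The mean FPKM of at least 5 gave 1403 negative genes. Library weights called 7403 genes, 3784 positive and 3619 negative. In the same order of groups, those standing apart numbered 996, 642, 521 and 305 with an equal FPKM sum, and 871, 652, 55 and 39 with a gap over 2/3 of the range. For unheated and heated CHIP-KO they numbered 255 and 161 with an equal FPKM sum without Gm23935, 272 and 189 with library weights, 209 and 162 without both WT replicates 1, and 297 and 180 without CHIP-KO heated replicate 1 as well. The cause was not tested.

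The replicate numbers were not taken to pair the libraries. Same-numbered deviations from the group means correlated at 0.33, 0.02 and 0.23 between the heated groups, but at -0.12 to 0.003 between the WT groups, -0.08 to -0.01 between the CHIP-KO groups and -0.06 to 0.02 between the unheated groups. In heated WT, replicate 2 correlated best with heated CHIP-KO replicate 3. A replicate block gave 4583 called genes, and a replicate block within genotype gave 3886. The block called Hsph1 (1.12, adjusted p = 0.0327) and Hsf1 (0.25, adjusted p = 0.0363), which were not called without it, and within genotype it left Ddit3 and Pnrc1 uncalled (adjusted p = 0.0835 and 0.0506). Of 122 named genes, 111 were called, and over 3285 refits 37 lost and 26 gained a call. Sign changed in 23 refits, all of genes that were not called. Hspb1 (0.06) became -0.042 with an equal FPKM sum, -0.033 without Gm23935 as well and -0.068 with quantile normalization, and -0.14 to 0.35 without 1 library. Bag3 (-0.03) became 0.23 with library weights, 0.27 without both WT replicates 1, 0.08 without CHIP-KO heated replicate 1 too, and -0.22 to 0.22 without 1 library. Atf3 (-0.01) became 0.43, 0.48 and 0.15 under those settings and -0.35 to 0.45 without 1 library. Hsp90ab1 (0.71) was not called with quantile normalization (0.37, adjusted p = 0.142) or with no filter (0.71, adjusted p = 0.0703). Genes near the minimum of 1 FPKM carry few fragments, and the pseudocount compresses their changes.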

Other observations

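Metabolic and redox genes outside the lists above also differed. Of 21 tested NRF2 targets, 12 had a positive and 4 a negative interaction, Gstm1, Gsta4, Nqo1 and Nfe2l2, with a list median of 0.54. Gclm, the regulatory subunit of the enzyme that starts glutathione synthesis, stood at 22.8, 19.0 and 18.3 FPKM in unheated WT, 7.78, 7.04 and 6.71 in heated WT, 10.9, 10.7 and 10.6 in unheated CHIP-KO and 11.1, 9.49 and 9.78 in heated CHIP-KO. Unheated WT was apart at the top, heated WT lay below both CHIP-KO groups, and the interaction was 1.28 (SE 0.121, adjusted p = 2e-05, limma).

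Of 24 tested glycolysis and hypoxia genes, 10 had a positive and 2 a negative interaction, Aldoc and Slc16a3 (median 0.41). Eno1, the glycolytic enolase, stood at 302, 288 and 265 FPKM in unheated WT, 133, 156 and 144 in heated WT, 132, 130 and 132 in unheated CHIP-KO and 145, 151 and 148 in heated CHIP-KO. Unheated WT alone was high, and the interaction was 1.15 (SE 0.0944, adjusted p = 7.25e-06). Of 34 nuclear-encoded respiratory chain genes, 17 were positive and 1, Cox6c, negative (median 0.31), and unheated WT stood apart as highest in 11. Of 26 endoplasmic reticulum folding genes, 9 were positive and 17 not called (median 0.26, or 0.16 on the equal-sum scale), with Hspa5 (BiP), the main chaperone there, at 0.82 (adjusted p = 0.00133). Without both WT replicates 1, 10 were positive and 2 negative (median 0.14), and without CHIP-KO heated replicate 1 too, 12 and 3 (median 0.16). With all libraries, calls in either direction were about as common in this list as over all tested genes (35.2%). All calls of this list were positive, while over all tested genes 17.9% were positive and 17.3% negative.

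Of 15 mitochondrial genome transcripts only mt-Nd4l was called (-1.29, adjusted p = 0.00479), while the list median was -0.66. The median was -0.39 with 3 called without both WT replicates 1, and without CHIP-KO heated replicate 1 too it was -0.42 with 4 called, all negative. These transcripts took 0.537%, 1.06% and 1.21% of the summed FPKM times length in unheated WT, where replicate 1 was the lowest of all libraries, and 0.915% to 1.67% in the other 9. Among 14 tested contractile actin genes, Tpm1, Tagln2 and Actb were positive and Myl9, Acta2 and Cald1 negative. These counts were near the shares over all tested genes (17.9% positive, 17.3% negative), and the list's median interaction was 0.004. Myl9, a myosin light chain, stood at 3.71, 3.69 and 3.89 FPKM in unheated WT and between 14.5 and 21.7 in the other 9 libraries, with an interaction of -2.03 (SE 0.148, adjusted p = 3.21e-06).

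Signalling lists were mixed, beside 17.9% positive and 17.3% negative interactions over all tested genes. Of 20 tested fibroblast chemokine and NF-kB feedback genes, 7 were positive and 5 negative, and 2 and 7 on the equal-sum scale. Ccl5, Cxcl12, Cxcl5, Cxcl1 and Cxcl16 were the negative ones. This list's median interaction of -0.02 was -0.08 without both WT replicates 1 and -0.04 without CHIP-KO heated replicate 1 too. Of 22 tested p53 targets, 6 were negative and 1, Plk2, positive, and 12 and 2 without both WT replicates 1 and CHIP-KO heated replicate 1. Of 19 tested growth factor receptors and ligands, 9 were negative and 4 positive, Fgf7, Igf1, Met and Pdgfb, against 9 and 1 on the equal-sum scale. Their median interaction of -0.37 was -0.14 without both WT replicates 1 and -0.13 without CHIP-KO heated replicate 1 too. Egfr, the epidermal growth factor receptor, stood at 1.15, 1.60 and 1.82 FPKM in unheated WT and between 5.79 and 7.41 in the other 9 libraries, with an interaction of -1.31 (SE 0.134, adjusted p = 3.69e-05).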
